A study of Mus musculus with 7 samples.

Results

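The genes described here write, copy and remove DNA methylation, or shield it, in the early mouse embryo: Dppa3, Dnmt1, Uhrf1, Zfp57, Trim28, Dnmt3a, Dnmt3b, Dnmt3l, Tet1 and Tet3. They were chosen by symbol, and all 10 were found among the 26586 gene symbols of the count table. Messenger RNA was measured by RNA sequencing in 7 single morula embryos of the C57BL/6 strain, flushed at 3 days post coitum. Every embryo came from a cross of parents that each carried 1 mutant copy of L13a (Rpl13a), a ribosomal protein gene. No genotype, sex, litter or batch of an embryo is given in the labels, so the 7 embryos formed 1 group, numbered 1 to 7, and no genotypes were compared. Nothing says that the embryos came from separate litters, so p-values measure only how these 7 samples spread, and part of that may be technical.

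After fertilisation, methylation of the parental genomes is largely lost before the blastocyst forms. Dnmt1 copies methylation onto new DNA strands, guided by Uhrf1, which recognises sites methylated on the old strand alone. Tet enzymes oxidise the methyl group, with Tet3 supplied by the oocyte and acting in the zygote, and Dppa3 (Stella, PGC7), also stored in the oocyte, protects maternal methylation from that oxidation. Imprinted loci keep their marks through Zfp57, a zinc finger protein that binds methylated imprints, and its partner Trim28 (KAP1). The de novo enzymes Dnmt3a and Dnmt3b, with the cofactor Dnmt3l, set new marks in germ cells and around implantation.

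The libraries differed widely, and this touches every value below. Totals ran from 139619 counts in embryo 6 to 33123742 in embryo 4, and 1749 to 12064 genes had a count. A level is given in CPM, the count divided by the library total and scaled alike in all libraries. A count of 0 allows a level of up to 3 counts, which is 2.62, 0.182, 4.13, 0.0906, 1.09, 21.5 and 0.175 CPM in embryos 1 to 7. These limits and all intervals cover counting error only, since amplified copies of 1 molecule were not told apart. Fewer cells expressing a gene and less RNA per cell cannot be told apart in a whole embryo.

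The labelled stage was checked against marker genes. Nanog, of the pluripotent cells, and Cdx2, of the trophectoderm, had 2596 and 3490 counts in embryo 4 and 0 in the other 6. Pou5f1 (Oct4) was counted in embryos 2, 4 and 7, and Krt8, a trophectoderm keratin, in embryos 2 and 4. The 20 pluripotency genes summed to 203 to 4351 CPM and the 17 trophectoderm genes to 2.76 to 6098 CPM, both highest in embryo 4. Dppa5a and Dab2 had the highest means of these lists. Of the pluripotency genes, 7, 13, 5, 19, 7, 1 and 10 were counted in embryos 1 to 7. Of the trophectoderm genes, 4, 13, 1, 16, 1, 2 and 9 were counted. Sums that rest on 1 or 2 genes, as in embryos 3, 5 and 6, are a weak check of the stage. The pluripotency sum of embryo 3 was 1328 CPM, with Klf5 at 820 and Sall4 at 389 CPM. The trophectoderm sum of embryo 6 was 3581 CPM, with Dab2 at 3065 CPM there and 437 CPM in embryo 4. The summed level of 41 oocyte transcripts, led by Zbed3, was 36338, 21850.0, 37481, 2601, 710.1, 24080 and 55918 CPM in embryos 1 to 7. Embryo 6, the shallowest library, stood apart in the summed level of markers of the mother's tissues, but not in how many were counted. There 5 of 15 oviduct and uterine genes summed to 6324 CPM, against 0 to 2960 CPM in the others. Sprr2f gave 1948, Wfdc2 1690 and Lcn2 1490 CPM of it. The 3 of 11 stroma and muscle genes counted there, led by Dcn, summed to 4734 CPM, against 0.362 to 565 CPM elsewhere. More of both lists were counted in embryos 1, 2 and 7. There 7, 13 and 9 of the oviduct and uterine genes had a count, and 6, 9 and 6 of the stroma and muscle genes. The defining oviduct gene Ovgp1 was at 0 in embryo 6 and counted in embryos 1, 2 and 7. The part of cells of the mother's tissues in the values of embryo 6, or of any other embryo, was not tested.

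The reads were counted per gene, so alternative starts of a gene are summed. This bears most on Dnmt1, whose oocytes use a first exon of their own, upstream of the somatic one, and which has 3 annotated start windows on chromosome 9. The 250 bases before each are shown with every CpG, the methylated dinucleotide, in capitals. RefSeq windows of build GRCm38.p6 matched 9 of the 10 genes, and Dppa3 was the one without an entry. Each sequence runs 5′ to 3′ on the strand of its gene.
Dnmt1, upstream start, chr9:20959889-20960138, minus strand: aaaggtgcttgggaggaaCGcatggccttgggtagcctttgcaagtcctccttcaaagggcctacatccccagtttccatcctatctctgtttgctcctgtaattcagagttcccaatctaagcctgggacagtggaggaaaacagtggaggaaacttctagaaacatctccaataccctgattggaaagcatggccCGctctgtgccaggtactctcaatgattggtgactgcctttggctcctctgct
Dnmt1, middle start, chr9:20952980-20953229, minus strand: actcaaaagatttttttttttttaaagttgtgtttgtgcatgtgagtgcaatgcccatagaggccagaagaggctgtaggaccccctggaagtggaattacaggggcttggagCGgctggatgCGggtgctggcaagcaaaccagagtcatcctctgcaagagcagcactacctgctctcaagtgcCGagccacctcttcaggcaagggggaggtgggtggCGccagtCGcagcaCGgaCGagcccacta
Dnmt1, downstream start, chr9:20952624-20952873, minus strand: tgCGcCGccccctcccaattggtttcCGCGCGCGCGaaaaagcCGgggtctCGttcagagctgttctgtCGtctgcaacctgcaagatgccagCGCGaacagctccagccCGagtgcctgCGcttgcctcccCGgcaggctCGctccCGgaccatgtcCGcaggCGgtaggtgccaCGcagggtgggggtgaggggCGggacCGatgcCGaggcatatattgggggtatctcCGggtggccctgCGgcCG
The upstream window held 2 CpG, the middle 7 and the downstream 26. Among 32851 windows of the same length, 81.2%, 46.3% and 9.59% held as many or more, and 92.1% held at least 1 CpG. The next 50 bases of each window began an annotated GENCODE transcript. Which start the counted Dnmt1 reads came from was not determined.

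A further pair of windows is shown because their genes were counted in the same 4 embryos and the windows lie far apart in CpG content.
Dnmt3a, chr12:3806910-3807159, plus strand: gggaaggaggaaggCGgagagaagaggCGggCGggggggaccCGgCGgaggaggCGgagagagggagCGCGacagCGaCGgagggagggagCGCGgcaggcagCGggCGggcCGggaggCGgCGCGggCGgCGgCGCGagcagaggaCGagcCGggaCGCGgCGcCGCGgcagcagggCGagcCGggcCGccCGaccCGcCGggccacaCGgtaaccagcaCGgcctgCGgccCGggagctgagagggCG
Zfp57, chr17:37000913-37001162, plus strand: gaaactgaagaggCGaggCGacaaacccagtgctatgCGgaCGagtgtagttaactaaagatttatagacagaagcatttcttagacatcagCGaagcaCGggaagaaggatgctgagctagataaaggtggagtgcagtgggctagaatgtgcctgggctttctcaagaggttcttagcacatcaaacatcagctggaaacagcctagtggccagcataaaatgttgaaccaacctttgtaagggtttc
The Dnmt3a window shown held 40 CpG, which 1.31% of windows reached, and the Zfp57 window shown held 6, which 50.4% reached. Both genes have further windows, with 38 and 15 CpG for Dnmt3a and 3 and 7 for Zfp57. Which start the reads of these genes came from was not determined. The other windows of the 9 genes held from 3 CpG (Dnmt3l and Zfp57) to 38 (Dnmt3a). No methylation was measured, so these letters describe the loci and not their state in the embryos.

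Dppa3 was the only one of the 10 genes counted in every embryo and the most abundant of them in 6 of 7. In GRCm38 it occupies chromosome 6, 122626410 to 122630272, plus strand. Its counts were 1966, 47793, 1117, 134458, 233, 477 and 49728 in embryos 1 to 7. In CPM these were 1719, 2905, 1539, 4059, 84.3, 3416 and 2904. Embryo 5 was low, at 84.3 CPM (95% Poisson interval 73.8 to 95.8), and the other 6 lay within 2.64-fold of each other. The highest, embryo 4, was 48.2-fold above embryo 5. The gene ranked from 9 (embryo 2) to 117 (embryo 3) among all genes in 6 embryos, and 1173 in embryo 5.

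On the log2 scale Dppa3 averaged 10.64 ± 1.89 log2 CPM (SD, n = 7). Of the 11810 genes that averaged at least 1 CPM, 98.6% had a larger SD, but these span all levels. Among other abundant genes, SDs lay on both sides of 1.89. Eif1 had 0.49 at a mean of 10.05 log2 CPM and Tceb1 1.31 at 9.97. Cdc42se2 had 2.09 at 10.02 and Eif5a 2.82 at 10.30. Whether the SD of Dppa3 is low for its mean was not tested. Without embryo 5 the SD of Dppa3 was 0.78, so embryo 5 carried most of its spread. Of those 11810 genes, 3.69% were counted in all 7 embryos.

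**Figure D1:**
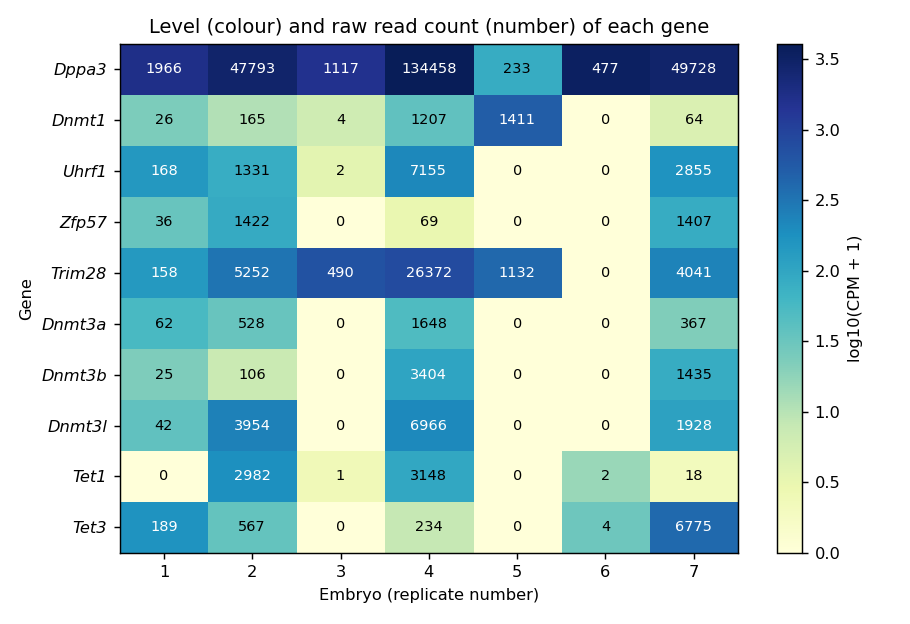
Colour gives log10(CPM + 1) and the number the raw read count of each of the 10 genes (down) in embryos 1 to 7 (across). Dppa3 was counted throughout, from 233 to 134458 counts, while Dnmt3a, Dnmt3b, Dnmt3l and Zfp57 had counts in embryos 1, 2, 4 and 7 and 0 in embryos 3, 5 and 6.

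Dnmt1, the maintenance enzyme, showed the reverse placement in embryo 5, where it was highest. The gene spans chromosome 9 from 20907209 to 20959888 on the minus strand. Its counts were 26, 165, 4, 1207, 1411, 0 and 64, which is 22.7, 10.0, 5.51, 36.4, 510.4, 0 and 3.74 CPM in embryos 1 to 7. Embryo 5 stood 14.0-fold above embryo 4, the next highest, from a library of 2764409 counts. The 95% Poisson intervals of embryos 5 (484 to 538 CPM) and 4 (34.4 to 38.6 CPM) did not overlap. The interval of embryo 3, from 4 reads, overlapped those of embryos 2 (8.56 to 11.7 CPM) and 7 (2.88 to 4.77 CPM). Embryo 6 had 0 counts, but its limit of 21.5 CPM lies above the level of 3 other embryos.

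For each Dnmt1 read there were 0.165 Dppa3 reads in embryo 5, against 75.6, 290, 279, 111 and 777 in embryos 1, 2, 3, 4 and 7. These ratios were not corrected for length, which is the same in every embryo. Dnmt1 was the only one of the 10 to peak in embryo 5, while 4 peaked in embryo 4, 3 in embryo 2 and 1 each in embryos 1 and 7. Of the 11810 genes, 7.10% had their highest level in embryo 5, 29.6% in embryo 4, 18.6% in embryo 2, 10.9% in embryo 1 and 19.2% in embryo 7. Markers of cumulus and granulosa cells, which surround the oocyte, were highest in embryo 5. Their sum was 201 CPM there, nearly all from 554 reads of Fst, against at most 12.2 CPM elsewhere, and 10 of the 12 markers were at 0 in embryo 5. Their part in the Dppa3 and Dnmt1 levels of embryo 5 was not tested.

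Uhrf1, which brings Dnmt1 to newly copied DNA, was high in 4 embryos and at or near 0 in the other 3. It lies on chromosome 17, from 56303321 to 56323486 on the plus strand. It had 168, 1331, 2, 7155, 0, 0 and 2855 counts, or 147, 80.9, 2.76, 216, 0, 0 and 167 CPM in embryos 1 to 7. Between the 4 high embryos, levels differed by 2.67-fold. In embryo 5 a count of 0 limits Uhrf1 to 1.09 CPM, beside 510.4 CPM of Dnmt1. Per Dnmt1 read there were 6.46, 8.07, 0.50, 5.93, 0 and 44.6 Uhrf1 reads in embryos 1, 2, 3, 4, 5 and 7, with only 2 and 4 reads behind the value of embryo 3. Embryos 1, 2 and 4 were close together in this ratio, embryo 5 lay below them and embryo 7 above.

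Trim28, the corepressor recruited by KRAB zinc finger proteins, was counted in 6 embryos at levels within 5.76-fold. It lies on chromosome 7, from 12999114 to 13031035 on the plus strand. Its counts were 158, 5252, 490, 26372, 1132, 0 and 4041, which is 138, 319, 675, 796, 409, 0 and 236 CPM in embryos 1 to 7. Embryo 6, at 0 with a limit of 21.5 CPM, was the 1 embryo below the others, and even that limit was under their lowest level. Without embryo 6 the SD of Trim28 was 1.04 log2 CPM, against 4.15 with it. Trim28 overlaps Zbtb45 on the opposite strand, though their exons do not overlap.

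Zfp57, the imprint-binding partner of Trim28, was scarce or uncounted in 4 of 7 embryos. It lies on chromosome 17, from 37001163 to 37010635 on the plus strand. It had 36, 1422, 0, 69, 0, 0 and 1407 counts, or 31.5, 86.4, 0, 2.08, 0, 0 and 82.2 CPM in embryos 1 to 7. Embryo 4, the deepest library, held 69 counts, 41.5-fold under embryo 2 in CPM. Trim28 reads per Zfp57 read were 4.39, 3.69 and 2.87 in embryos 1, 2 and 7 and 382 in embryo 4. In embryos 3 and 5 only Trim28 was counted, and a count of 0 limits Zfp57 to 4.13 and 1.09 CPM there.

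The de novo group was counted in the same 4 embryos. Dnmt3a, on chromosome 12 from 3806007 to 3914443 on the plus strand, had 62, 528, 0, 1648, 0, 0 and 367 counts in embryos 1 to 7. Its levels in embryos 1, 2, 4 and 7 were 54.2, 32.1, 49.8 and 21.4 CPM, a 2.53-fold range. Dnmt3b, on chromosome 2 from 153649450 to 153687730 on the plus strand, had 21.9, 6.44, 103 and 83.8 CPM there, from 25 reads in embryo 1 to 3404 in embryo 4. Embryo 4 was 16.0-fold above embryo 2 in Dnmt3b. Dnmt3l, the cofactor without catalytic activity, lies on chromosome 10 from 78041947 to 78063622 on the plus strand. It had 42, 3954, 6966 and 1928 counts in the same embryos, or 36.7, 240, 210 and 113 CPM, with embryo 2 6.55-fold above embryo 1.

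Counts in embryos 1, 2, 4 and 7 alone were a common pattern. It was found for 735 of the 11810 genes, 6.22%, and for 4 of the 10 genes described here (Dnmt3a, Dnmt3b, Dnmt3l and Zfp57). Of the 2110 genes counted in exactly 4 embryos, 34.8% had it, the most frequent of 29 such patterns. Those 4 embryos were also the ones with the most genes counted at equal depth. With every library thinned to 139619 counts, 33.1, 57.5, 68.8 and 55.2% of the 11810 genes were counted in embryos 1, 2, 4 and 7, and 23.8, 19.6 and 14.8% in embryos 3, 5 and 6. The part of this difference in the zeros of the de novo genes was not tested. After thinning, 9, 8, 4, 10, 3, 3 and 8 of the 10 genes had a count in embryos 1 to 7, against 9, 10, 5, 10, 3, 3 and 10 before.

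**Figure D2:**
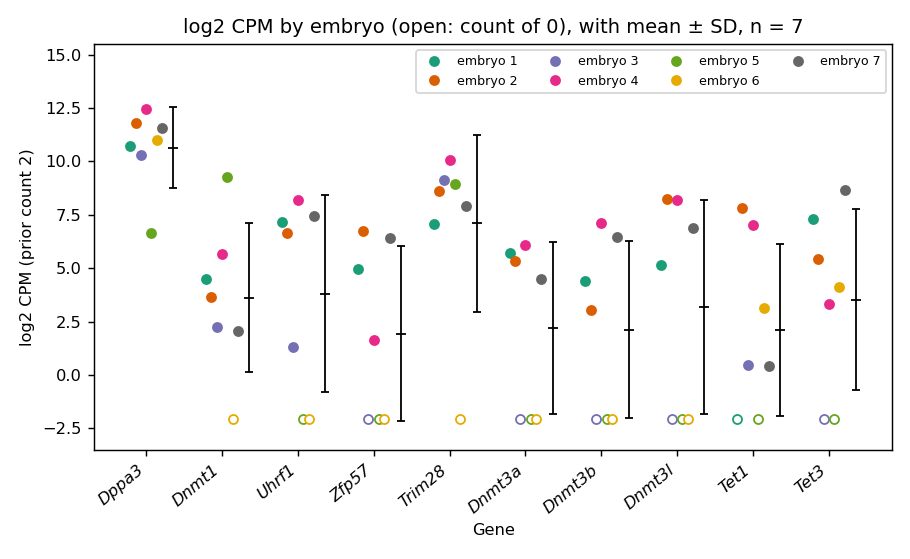
Points give log2 CPM (TMM-scaled, prior count 2) of each gene in each of the 7 embryos, open where the count was 0, and the bar beside them the mean ± SD (n = 7). Dppa3 has the smallest SD, 1.89, and Dnmt3l the largest, 5.01, with embryos 3, 5 and 6 at the floor for several genes.

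Shares within a family do not depend on the library total, and they too differed between embryos. Dnmt3b took 28.7% (95% Clopper-Pearson interval 19.5 to 39.4) of the Dnmt3a and Dnmt3b reads of embryo 1 and 16.7% (13.9 to 19.9) in embryo 2. It took 67.4% (66.1 to 68.7) in embryo 4 and 79.6% (77.7 to 81.5) in embryo 7. Dnmt3a thus had more reads in embryos 1 and 2 and Dnmt3b in embryos 4 and 7, and the intervals of embryos 1 and 2 did not overlap those of embryos 4 and 7. Divided by coding length, the shares were 29.9, 17.5, 68.6 and 80.5%. Divided by exon length, where Dnmt3a counts 16642 bases and Dnmt3b 5106, they were 56.8, 39.6, 87.1 and 92.7%, so the larger of the genes in embryo 1 depends on the length used.

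Dnmt1 made up 23.0, 20.7, 19.3 and 3.43% of the reads of the 3 catalytic Dnmt genes in embryos 1, 2, 4 and 7. Divided by coding length, these shares were 14.2, 12.6, 11.4 and 1.87%, and by exon length 29.0, 29.9, 17.6 and 2.78%. Embryo 7 was low (interval 2.65 to 4.36%), and the intervals of embryos 1 (15.6 to 31.9%), 2 (17.9 to 23.6%) and 4 (18.3 to 20.3%) overlapped. In embryo 5 all 1411 such reads were Dnmt1, a share of at least 99.7%. In embryo 3 the 4 reads were all Dnmt1, which allows any share from 39.8%, and embryo 6 had none.

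**Figure D3:**
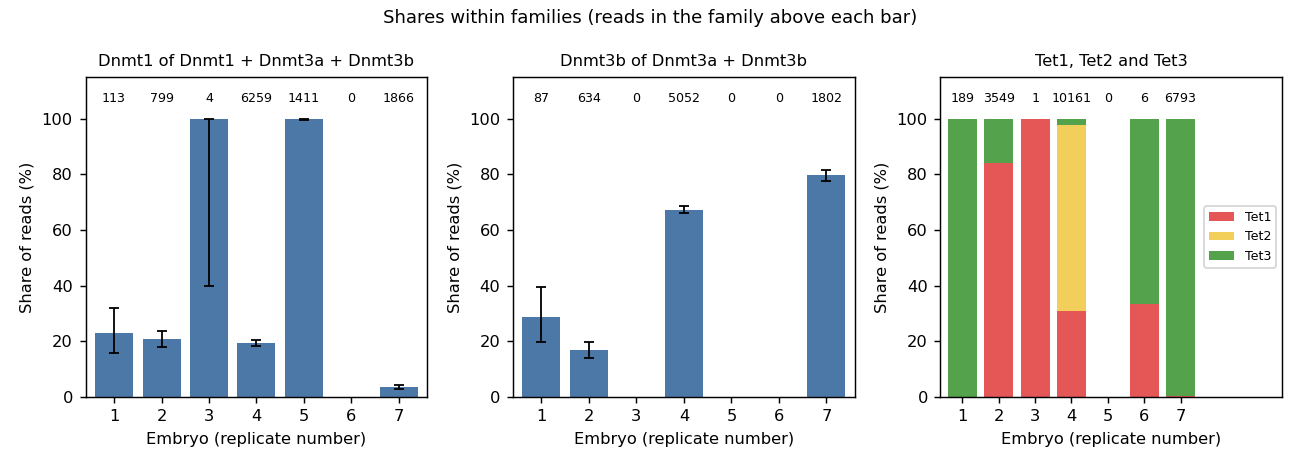
Bars give the share of reads (%) of Dnmt1 among Dnmt1, Dnmt3a and Dnmt3b (left) and of Dnmt3b among Dnmt3a and Dnmt3b (middle) with 95% Clopper-Pearson intervals, and the division among Tet1, Tet2 and Tet3 (right), in embryos 1 to 7, with the number of reads above each bar. Dnmt3b holds 16.7 to 28.7% in embryos 1 and 2 and 67.4 to 79.6% in embryos 4 and 7, and a different Tet gene leads in embryos 2, 4 and 7.

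The Tet genes, whose enzymes oxidise methylated cytosine, alternated between embryos. Tet1, on chromosome 10 from 62804570 to 62908996 on the minus strand, had 0, 2982, 1, 3148, 0, 2 and 18 counts in embryos 1 to 7. Its levels were 181 CPM in embryo 2 and 95.04 CPM in embryo 4, and 1.05 CPM in embryo 7, 172-fold under embryo 2. Tet3, on chromosome 6 from 83362373 to 83459084 on the minus strand, had 189, 567, 0, 234, 0, 4 and 6775 counts. That is 165, 34.5, 0, 7.06, 0, 28.6 and 396 CPM. Tet3 was highest in embryo 7, 56.0-fold above embryo 4, although both libraries were deep. Tet2, which is not among the 10 genes, had 6779 counts (205 CPM) in embryo 4 and 0 in the other 6.

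Tet3 therefore held 99.7% (95% Clopper-Pearson interval 99.6 to 99.8) of all Tet reads in embryo 7 and all 189 of them in embryo 1. Tet1 held 84.0% (82.8 to 85.2) in embryo 2. In embryo 4 Tet2 held 66.7% (65.8 to 67.6), Tet1 31.0% and Tet3 2.30%. Embryos 3 and 6 had 1 and 6 Tet reads, and embryo 5 had none, which leaves their division unresolved. The summed oocyte transcripts were highest in embryo 7, but embryo 3 held 37481 CPM of them with Tet3 at 0 (limit 4.13 CPM). Embryo 1 stood above embryo 2 in that sum and below it in the mean log2 CPM of the same list, at 6.17 in embryo 1 and 7.09 in embryo 2. Their part in the Tet3 share was not tested.

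Levels were compared between genes per kilobase of annotated exon. Dppa3 averaged 10.80 ± 1.94 log2 CPM per kilobase and Trim28 5.05 ± 3.79 (SD, n = 7, offset 0.1). Within embryos Dppa3 was higher than Trim28 in 6 of 7, by 5.75 ± 4.66 log2 units. In embryo 5 Trim28 stood at 98.5, Dppa3 at 94.5 and Dnmt1 at 69.2 CPM per kilobase. By coding length Dppa3 was the higher in 7 of 7 embryos, so the order of Trim28 and Dppa3 in embryo 5 depends on the length used. Uhrf1 (1.89 ± 4.11) and Dnmt3l (1.63 ± 4.71) came next, followed by Dnmt1 (0.91 ± 2.94), Tet3 (0.33 ± 3.06) and Zfp57 (0.21 ± 3.72). Dnmt3b (0.14 ± 3.49), Dnmt3a (-0.73 ± 2.46) and Tet1 (-0.77 ± 2.89) were last. From Trim28 downward, no gene differed from its neighbour in this order by more than the SD of that difference between embryos. By coding length, 4 of the 10 places in the order of means moved.

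The spread between embryos was not larger than that of genes of like abundance for any of the 10. The edgeR quasi-likelihood dispersion test called 0 of the 10 and 0 of 11810 genes (0.0%), with adjusted p from 0.869 to 0.988 for the 10 genes and 67 of all genes at an unadjusted p under 0.05, none of them among the 10. DESeq2 gave 0 dispersion outliers. Over all genes edgeR estimated a dispersion of 9.03, and a p that misses the threshold does not show that levels were alike. The median SD of log2 CPM was 4.11 over the 10 genes and 3.63 over the 11810.

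**Figure D4:**
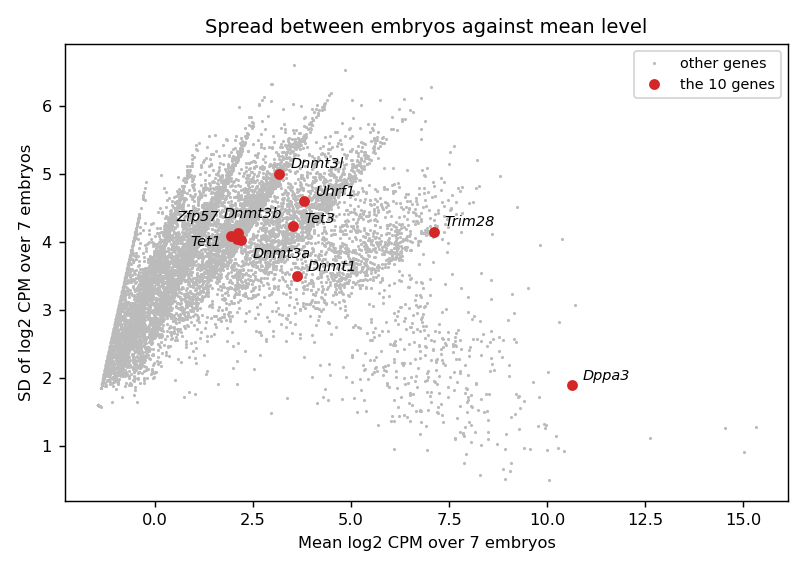
Each grey point is a gene averaging at least 1 CPM, placed by mean (across) and SD (up) of log2 CPM over the 7 embryos, and red points are the 10 genes. Dppa3 lies at a high mean and a low SD (10.64 and 1.89), where other abundant genes also lie. The other red points lie within the cloud, with SDs from 3.50 to 5.01.

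The relation of each gene to the oocyte transcripts, to pluripotency genes and to Rpl13a was examined over the 7 embryos. Where the largest gap between a gene's values exceeded 0.5 of their range, the embryos form separate clusters and no r was given. That left 3 of the 10 genes, Dnmt1, Zfp57 and Tet1, and 3351 of all genes. Zfp57 had r 0.74 with the oocyte score (exact permutation p 0.0738, adjusted over 3351 genes 0.783) while its rho was 0.78 (exact p 0.0571, adjusted 0.745). Without embryos 4 and 5, farthest from the median of the score, r was 0.90. Dnmt1 had r -0.46 (exact p 0.305, adjusted 0.857) while its rho was -0.54 (exact p 0.236, adjusted 0.837), but r was 0.69 without embryos 4 and 5, so its sign rests on them. Tet1 had r 0.0019 (exact p 0.996, adjusted 1.0) while its rho was 0.11 (exact p 0.822, adjusted 0.969), and r was 0.0058 without those embryos.

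With the pluripotency score, Tet1 had r 0.70 (exact permutation p 0.0667, adjusted 0.266) while its rho was 0.47 (exact p 0.287, adjusted 0.516). Without embryos 2 and 4 its r was -0.49, so the relation rests on those embryos. Zfp57 had r 0.34 (exact p 0.494, adjusted 0.693), and 0.61 without embryos 2 and 4, with a rho of 0.52 (exact p 0.245, adjusted 0.470). Dnmt1 had r 0.37 (exact p 0.397, adjusted 0.622), and 0.44 without them, with a rho of 0.43 (exact p 0.354, adjusted 0.579).

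Rpl13a, the gene mutated in the parents, was at 86.5, 119, 5.51, 530, 3.26, 7.16 and 23.5 CPM in embryos 1 to 7. Against it Zfp57 had r 0.64 (exact permutation p 0.117, adjusted over 3350 genes 0.382), and its rho was 0.70 (exact p 0.105, adjusted 0.413). For Tet1 the r was 0.61 (exact p 0.160, adjusted 0.425) while its rho was 0.54 (exact p 0.218, adjusted 0.501). For Dnmt1 the r was 0.23 (exact p 0.620, adjusted 0.789) while its rho was 0.18 (exact p 0.713, adjusted 0.873). Without embryos 2 and 4 the r of Zfp57, Tet1 and Dnmt1 was 0.90, -0.43 and 0.057, so the relation of Tet1 rests on those embryos. On each of the 3 axes the exact permutation test called 0.0% of all genes, and 224, 680 and 504 genes had an unadjusted p under 0.05. An edgeR slope test also called 0 of 11810 genes on each axis. None of the 9 relations passed.

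**Figure D5:**
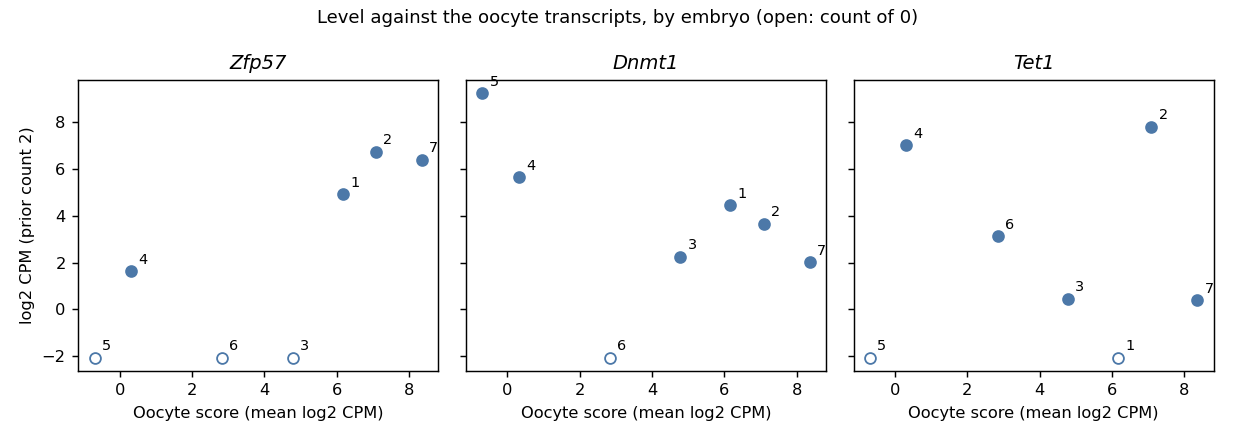
Points give log2 CPM (prior count 2) of Zfp57, Dnmt1 and Tet1 (up) against the mean log2 CPM of the oocyte list (across) in the 7 embryos, numbered, open where the count was 0. Zfp57 has r 0.74, Dnmt1 r -0.46 and Tet1 r 0.0019, none past the test.

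The genes most like each of the 10 were sought among 5280 others counted in at least 4 embryos, by Pearson's r of log2 CPM over the 7 embryos, as a measure of likeness with no test. Closest to Dppa3 were Ugcg, a glycosylceramide synthase (r 0.98), Rsl1d1 (0.97) and Imp3 (0.96), each at 0 in embryo 5. Closest to Dnmt1 were the histone gene Hist1h2ao (0.97), with 9249 CPM in embryo 5 and at most 367 CPM elsewhere, Purb (0.97) and Gm5088 (0.97). All 3 genes closest to Dnmt1 were, like it, highest in embryo 5 and at 0 in embryo 6. Choosing genes by r favours such shared extremes, and the same holds for the genes closest to Dppa3 and Trim28. An r of 0.9 was reached by 33 genes with Dppa3, 23 with Dnmt1, 16 with Tet1, 46 with Tet3 and 136 with Trim28. Closest to Trim28 were the actin regulator Cfl1, Smu1 and Sub1, with r from 0.99 to 1.0, all at 0 in embryo 6.

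For Uhrf1 the closest were Stmn1, Arid4b and Zfr, for Zfp57 Axin2, Nsun4 and B4galt2, and for Tet1 Tsc22d3 and Maged1. Tet3 was closest to Gm9519, 4933411K20Rik and C330019G07Rik. Dnmt3a was closest to 1110002B05Rik, Ssr3 and Sin3b, Dnmt3b to Sec11a, Rnpep and Prr15l, and Dnmt3l to Ubb, Fam122b and Gm1821. For Dnmt3l, Dnmt3a, Uhrf1, Dnmt3b and Zfp57, 305 to 534 genes reached an r of 0.9, so their closest genes say little beyond the shared zeros. Arid4b, which is known from imprint control, was also on the list of imprint partners.

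Other genes of the pathway also varied, and the edgeR dispersion test called none of them. The median SD of log2 CPM was 3.73 for maintenance partners, 3.88 for imprint partners, 3.75 for de novo partners and 4.02 for demethylation and repair. It was 2.83 for readers, 4.44 for methyl donor supply and 3.89 for imprinted genes, beside 3.63 over the 11810 genes. The 12 maintenance partners were all tested, with 0 called. Usp7, a deubiquitinase that binds Dnmt1 and Uhrf1, was at 78.7, 194, 6.89, 131, 611, 50.1 and 387 CPM in embryos 1 to 7. Like Dnmt1 it was highest in embryo 5, the only 1 of the 12 partners to peak there, while 6 peaked in embryo 4. Of the 11810 genes, 7.10% peaked in embryo 5, so 1 such partner does not set the list apart. The chromatin remodeller Hells was counted in all 7 embryos, from 11.0 CPM in embryo 3 to 573 CPM in embryo 6. Dppa2, which keeps bivalent promoters free of methylation, reached 823 CPM in embryo 4 and was at 0 in embryos 1, 3 and 6. The summed level of the group ran from 194 CPM in embryo 1 to 1964 CPM in embryo 4.

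The 14 partners in imprint protection and KRAB repression were likewise all tested, with 0 called. Zfp809, a KRAB zinc finger protein that silences retroviral DNA, had 4061 CPM in embryo 6 and at most 134 CPM elsewhere. Setdb1, the histone methyltransferase recruited by Trim28, was at 670, 150, 0, 22.6, 0, 0 and 230 CPM in embryos 1 to 7. Setdb1 was thus at 0 in embryos 3, 5 and 6, like Zfp57, while Trim28 was present in embryos 3 and 5. That pattern of zeros was shared by 6.22% of the 11810 genes. The limit of 21.5 CPM in embryo 6 is close to the 22.6 CPM of Setdb1 in embryo 4. Morc3, a chromatin ATPase, peaked at 1043 CPM in embryo 3.

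Of 9 partners in de novo methylation, 7 were in the table and tested, 1 of them under an older symbol, with 0 called. Kdm5b, a demethylase of histone H3 lysine 4, ranged from 0 in embryo 6 to 526 CPM in embryo 5. Nsd1, which writes a histone mark read by Dnmt3a, was at 447, 71.1, 0, 105, 37.3, 7.16 and 163 CPM. Whsc1 (Nsd2), a related enzyme, was highest in embryo 7 at 429 CPM.

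Among 17 genes of demethylation and base excision repair, 16 were tested and 0 called. Ogt, the glycosyltransferase that binds Tet proteins, was at 197, 158, 1348, 92.8, 3902, 0 and 84.5 CPM in embryos 1 to 7. Parp1, of DNA repair, was at 3481 CPM in embryo 5 and at most 271 CPM elsewhere. The pair was thus high in embryo 5, where no Tet reads were counted. Neil3, a DNA glycosylase, was counted only in embryos 1 and 7, with 380 and 218 counts.

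Methyl donor supply and readers of methylation completed the lists. Mat2a, the enzyme that makes S-adenosylmethionine, was at 2417 CPM in embryo 5, 477 CPM in embryo 4 and 2.62 CPM in embryo 1. Its regulatory subunit Mat2b was at 3815, 532, 13.8, 82.4, 0, 1024 and 1740 CPM, so the embryo highest in Mat2a had no Mat2b count. Of the 10 genes of donor supply and 5 tested readers, 0 were called. Mbd3, of the NuRD complex, was the most abundant reader, from 0 in embryos 3 and 6 to 500 CPM in embryo 2.

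Imprinted genes, whose expression rests on the marks that Zfp57 and Trim28 protect, were counted unevenly, as were genes in general in these libraries. Of the 32 listed, 22 had a count in any embryo, 17 were tested and 0 called. In embryos 1 to 7, 8, 15, 5, 20, 4, 5 and 13 of them were counted. Kcnq1ot1, a long RNA of the imprinted Kcnq1 locus, was at 63.8, 56.5, 579, 50.3, 0, 1483 and 133 CPM. Gnas, of the locus of the stimulatory G protein, was highest in embryo 7 at 413 CPM and at 0 in embryos 5 and 6. Mest (Peg1) was at 592 CPM in embryo 1 and 215 CPM in embryo 6, and at most 30.2 CPM elsewhere. Parental alleles were not told apart in these counts.

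Some reads may be shared with other genes. Exons of Dnmt3l overlap exons of Aire on the opposite strand, and Aire had at most 96 counts in any embryo. Exons of Dnmt3a overlap an antisense gene, Dnmt3aos, which was not analysed here. Processed pseudogenes of Dppa3, Dnmt3a and Dnmt3l are annotated, and whether reads were split with them was not determined, so the levels of these genes are uncertain to that extent.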

How the data were processed

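Per the labels' protocols, messenger RNA of 7 single embryos was captured with oligo-dT and made into libraries with the SMART-Seq v4 and Nextera XT kits. The submitters' processing notes name HISAT2 2.0.5, featureCounts 1.5.0-p2 of Subread, limma and GRCm38. The sources used here give neither their order and settings nor the annotation, nor whether strand was used. The authors deposited raw read counts per gene symbol, and a table of log2 values, also theirs, in which all 7 columns share the same highest value. The counts were used throughout, and the log2 table as an alternative.

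TMM factors from edgeR 4.0.16 (R 4.3.3) scaled the libraries, and log2 CPM used a prior count of 2. CPM are counts over the library total, and the 11810 genes averaging at least 1 CPM were tested. Spread was tested by edgeR's quasi-likelihood dispersion (one-sided F test). Correlations used two-sided exact permutation tests over 5040 orders, with scipy 1.17.1 for intervals. P-values were Benjamini-Hochberg adjusted over all genes tested, at 0.05, and the smallest exact p is 0.000198. The oocyte and pluripotency scores are mean log2 CPM of their lists without the 10 genes. Both tests were tested on simulated data, where they recovered changed genes at a low spread and none at the spread of these data.

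Positions and lengths are from GENCODE M21 of GRCm38. Named genes were the 10, Rpl13a, the 3 most alike genes of each, and the 1 to 3 most abundant of each list, and a gene alike to Tet1 is not reported here. Tet2, Nanog, Pou5f1, Cdx2, Krt8, Ovgp1 and Mat2a were chosen after their values were seen. The 10 genes, the lists and the tests were chosen with earlier results of these data known. Markers of cumulus (4 of 12 counted), blood and immune (7 of 11) and sperm cells (3 of 10) summed to at most 201, 129 and 22.0 CPM in any embryo. Alternatives were another scaling, prior count, filter, thinning, tool or table, and leaving out each embryo.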

Additional observations from a re-analysis of the deposited data

Results flagged for a closer look

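In 4 cases 1 embryo lay far from the other 6, by Dixon's test at its 95% critical value for 7 samples. On the log2 CPM scale these were Dppa3 in embryo 5, at 6.67, and Trim28 in embryo 6, at -2.07. That value is the floor which the prior count sets for a count of 0, so the size of the Trim28 gap was not measured, and on the CPM scale Trim28 was not marked. On the CPM scale they were Dnmt1 in embryo 5, at 510.4 CPM, and Tet3 in embryo 7, at 396 CPM. Chance flags about 1 in 20 groups of like samples. Among all 11810 genes, 25.3% were marked on the log2 scale and 63.7% on the CPM scale, against 2 of the 10 genes on each, so such gaps were common in these libraries.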

How the results depend on the processing

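None of the 10 genes was called by the dispersion test, and none of those with an r was called for the oocyte score, the pluripotency score or Rpl13a, in the settings run. The exact test gave an r for 2 to 6 of the 10 and never for Dnmt3l, and only the edgeR slope covered all 10. The settings were DESeq2 size factors, the library total, no filter, a mean CPM of 10 or more, the authors' log2 table, each embryo left out, the prior of each gene or DESeq2 dispersion outliers for the spread, and a prior count of 0.5, thinned counts, Spearman's rho and the edgeR slope for the correlations. These counts of 0 are no sign of stability. The pluripotency correlation gave no value for thinned counts or without replicate 2 or 6, nor the Rpl13a correlation without replicate 7, because the scores then fell into separate clusters. Without replicates 3 and 6, an alternative added after seeing the data, 0 of the 10 passed the dispersion test. No paired analysis was possible because the 7 embryos form 1 group.

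Mean log2 CPM of the 10 genes moved by less than its SD in all settings, but these SDs were large and this is no sign of stability. With thinned counts the mean went from 1.93 to 5.02 for Zfp57 and from 2.10 to 5.02 for Tet1, while Dppa3 stayed at 10.64. SDs moved by over 1.5 times in 9 of 10 genes with thinned counts, to between 1.12 and 2.02. With every total at 139619 counts, the prior count of 2 puts a count of 0 at a higher log2 CPM. The part of this higher floor in the thinned means and SDs was not tested. SDs also moved by over 1.5 times in Dppa3 without replicate 5 (0.78). The same held for Trim28 without replicate 6 (1.04) or without replicates 3 and 6 (1.13). With more than 3 counts required, 3 genes in place of 5 were counted in embryo 3. In embryo 6, with 139619 counts, a count of 0 allows up to 21.5 CPM, and 1 read is 7.16 CPM.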
